A study of Cavia porcellus with 13 samples.

Results

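Guinea pig skin that had met ticks more than once was compared with skin that had met none. The repeat exposures were the 4 libraries labelled 2 bites (2 libraries) or 3 bites (2 libraries), out of 13 skin libraries in the study. They were pooled because both labels name more than 1 bite. This was read as more than 1 exposure to ticks, which the labels do not spell out. Their reference was naive replicate 3, the single unbitten library whose title carries the same prefix, EF19-5. Naive replicates 1 and 2, unbitten libraries with the prefix CK1, served only to show how far naive skin ranges. The labels do not explain the prefixes, which were read as 2 experiments. The remaining 6 libraries, 3 of a first exposure and 3 of saliva immune animals that were then bitten, carry CK1 and entered the model, and the first exposure is set beside the repeat exposures at the end. All bitten skin is labelled as taken at day 4 after the tick bite, and the naive skin carries the same time point with no bite. The labels name no strain, sex, age, body site or tick species, and nothing says that libraries of a group came from separate animals, so the p-values measure the spread between these libraries, which may be technical.

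A feeding tick cuts into the dermis, stays attached for days and releases saliva that acts on clotting, complement, itch and leukocytes of the host. Guinea pigs are the classical model of acquired tick resistance, in which a host that has been infested before rejects later ticks, with mast cells, basophils, T cells and antibodies long implicated. Keratinocytes, resident macrophages and Langerhans cells are the first host cells at the wound, and neutrophils, monocytes and lymphocytes enter from vessels that have been activated there. The question the design puts is how skin at a bite site differs once the host has met ticks before.

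Expression is given in TPM, which scales by transcript length, so levels of different genes can be compared within a library. It is also relative to all transcripts of a library, so a comparison between libraries depends on what else each of them holds. A level of 1 TPM was reached by 13270 to 14391 genes in each library, and the 4 repeat libraries (13715 to 13999) did not stand apart from naive replicate 3 (13692). The keratinocyte keratin KRT14 lay between 8499 and 14039 TPM in the repeat libraries and at 7903 TPM in naive replicate 3. On log2(TPM + 1) over the genes tested, the repeat libraries correlated with each other at r of 0.94 to 0.97 and with naive replicate 3 at 0.95 to 0.98, but with naive replicates 1 and 2 at 0.87 to 0.94. Genes are not independent replicates, and the libraries share most of their transcripts, so these values only describe how alike the libraries were. Skeletal muscle transcripts differed most: the 32 muscle list genes tested summed to 0.647% to 1.55% of all TPM in the repeat libraries, to 2.46% in naive replicate 3, and to 9.91% and 17.3% in naive replicates 1 and 2. Because TPM is a share, more muscle lowers every other gene of a library, and the part of muscle in the differences below was not tested except where a value without it is given.

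One gene rose in repeat exposure skin at an adjusted p under 0.05, and none fell. ENSCPOG00000008260, a gene with no symbol in the table, stood at 722 and 504 TPM after 3 bites and at 1365 and 1159 TPM after 2 bites, and was listed at 0 in all 3 naive libraries. Every repeat library was thus above every naive library by a wide margin, and both 2 bites libraries were above both 3 bites libraries. The difference on log2(TPM + 1) was 9.77 (SE 0.413) and the adjusted p from limma was 8.12e-07. This was 1 of 14979 genes tested, or 0.00668%. The gene was not particular to repeat exposure, since the first exposure libraries held 455, 569 and 498 TPM of it.

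LITAFD, a gene of the LITAF domain family, came next and was not called. It stood at 3.15 and 3.27 TPM after 3 bites and at 6.82 and 4.08 TPM after 2 bites, and was listed at 0 in the 3 naive and the 3 first exposure libraries. The repeat libraries did not overlap with those 6, at low levels throughout. Groups listed at 0 add no spread to the pooled residual of the fit, which lowers the SE of LITAFD. Its log2 difference from naive replicate 3 was 2.36 (SE 0.336, limma adjusted p = 0.139). It passed with 2 bites and 3 bites as groups of their own, with a pseudocount of 0.1 and with library weights, each of which gave 2 called genes in place of 1. All other genes had adjusted p-values of 1.00.

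The comparison rested on a single naive library, whose spread had to be taken from the other groups at 8 residual degrees of freedom. The part of this in the small number of calls was not tested. At an unadjusted p under 0.05 there were 247 genes higher (1.65% of those tested) and 169 lower (1.13%) in repeat exposure skin. When all 3 naive libraries were taken as 1 group with no term for the experiment, limma called 434 genes (190 higher and 244 lower, 2.90%). In that fit experiment and exposure cannot be told apart, since the repeat libraries all come from EF19-5 and most of the naive skin from CK1. Without 3 bites replicate 1 the main comparison called 2 genes, adding PRKAG3, and without 3 bites replicate 2 it also called 2, adding KRT9. Fitted on the 5 EF19-5 libraries alone it called 2 genes, adding SLC2A4RG. These additions were named after their values were seen.

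Separation from the whole range of naive skin was therefore used as a description. All 4 repeat libraries lay above all 3 naive libraries for 1552 genes (10.4% of those tested) and below them for 971 (6.48%). The balance depended on scaling. With median-of-ratios scaling the counts were 1179 above and 1314 below, and with totals taken without muscle genes they were 1164 and 1237. Naive replicate 3 set most of these limits: without it 4465 genes lay above the other naive libraries and 2144 below. Against naive replicate 3 alone, all 4 repeat libraries were higher for 2532 genes (16.9%) and lower for 2297 (15.3%). Per gene, the mean log2 difference was above 0 for 50.9% and below 0 for 49.0%, with a median of 0.01 over all genes.

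The genes that stood furthest above all naive skin included SPINK7, KLK13 and KRT2, which are known from keratinising epithelium, and PGLYRP3 and LPO, which act on microbes. None of the 12 genes with the widest gap passed the adjusted test against naive replicate 3. SPINK7, a Kazal-type inhibitor of serine proteases, stood at 16.7 and 12.4 TPM after 3 bites and at 52.3 and 36.8 TPM after 2 bites, against 1.99 TPM in naive replicate 3 and a listing of 0 in the other naive libraries. Its log2 difference was 3.14 (SE 0.768). KLK13, a kallikrein protease of stratified epithelium, showed 70.0, 46.7, 124 and 81.7 TPM in the same order, against 12.8, 10.3 and 5.45 TPM in naive replicates 3, 1 and 2. Both genes were higher in 2 bites than in 3 bites skin in every library. Their lack of overlap with naive skin follows from how they were chosen.

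KRT2, the keratin of the uppermost living layers of epidermis, stood at 1200.3 and 1589 TPM after 3 bites and at 3313 and 1578 TPM after 2 bites. Naive replicates 3, 1 and 2 held 336, 254 and 127 TPM. Here 2 bites replicate 1 was far above the other repeat libraries, which were alike, and the log2 difference was 2.40 (SE 0.742). RBP2, a cellular retinol-binding protein, ranged from 237 to 603 TPM in repeat skin and from 21.8 to 80.2 TPM in naive skin. CARHSP1, an RNA-binding protein with a cold-shock domain, ranged from 319 to 457 TPM against 54.6 to 136 TPM. SLURP2, a secreted keratinocyte protein of the Ly6 family, lay at 52.4 to 55.7 TPM in 3 of the repeat libraries and at 98.9 TPM in 2 bites replicate 1, against 8.60 to 24.9 TPM in naive skin.

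The remaining 6 genes of that group differ in their known functions. PGLYRP3, a peptidoglycan recognition protein that binds bacterial cell walls, stood at 35.1, 41.9, 71.0 and 53.0 TPM in 3 bites replicates 1 and 2 and 2 bites replicates 1 and 2, against 15.4, 9.67 and 4.37 TPM in naive replicates 3, 1 and 2. LPO, lactoperoxidase, stood at 8.77, 3.35, 14.4 and 7.36 TPM in that order, against 0.521 TPM in naive replicate 3 and a listing of 0 in the others. MMP12, the elastase of macrophages, was 41.6 TPM in 3 bites replicate 1 and 13.7 to 14.9 TPM in the other repeat libraries, against at most 5.72 TPM in naive skin. CCL17, a chemokine that draws T helper 2 cells through CCR4, stood at 6.81, 2.68, 11.4 and 1.81 TPM and was listed at 0 in all naive libraries, with a log2 difference of 2.49 (SE 0.830). CDHR1, a cadherin-related protein, stood at 14.6, 6.79, 16.4 and 9.75 TPM against 1.36 TPM or less in naive skin. ABCG4, a membrane transporter, ranged from 3.07 to 15.0 TPM against 0.203 to 0.960 TPM.

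**Figure D1:**
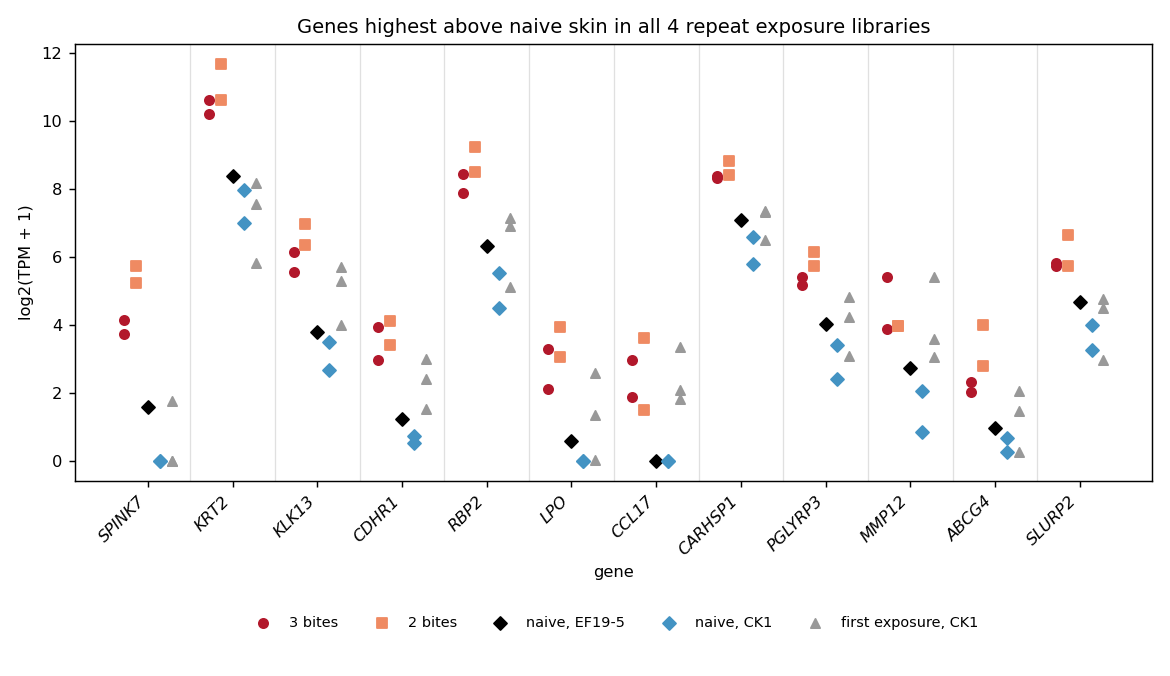
The 12 named genes with the widest gap above naive skin (x axis, gene) are plotted as log2(TPM + 1) on the y axis, 1 point per library, for 3 bites, 2 bites, EF19-5 naive, CK1 naive and first exposure skin. By the rule that chose these genes, the lowest repeat library sits above the highest naive library for each. The gaps run from SPINK7 at 12.4 against 1.99 TPM to SLURP2 at 52.4 against 24.9 TPM.

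On the lower side, the genes with the widest gaps included homeobox genes and genes of skeletal muscle. HOXC10, a homeobox transcription factor of posterior body regions, stood at 0.279 TPM in 3 bites replicate 1, at 0 in 3 bites replicate 2, and at 0.270 and 0.170 TPM after 2 bites. Naive replicates 3, 1 and 2 held 5.40, 4.85 and 7.09 TPM. Repeat skin was thus close to 0 in every library while the naive libraries of both experiments were alike, with a log2 difference of -2.45 (SE 0.494). HOXB6 ranged from 0.363 to 1.69 TPM in repeat skin and from 5.62 to 10.03 TPM in naive skin (log2 difference -2.56, SE 0.882). HOXA9 ranged from 1.39 to 2.22 TPM against 5.31 to 15.8 TPM.

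HOX genes keep in adult skin a record of position along the body, so the whole family was then counted, a choice made after these values were seen. Of 20 HOX genes tested, 7 were below all 3 naive libraries (HOXA9, HOXB5, HOXB6, HOXC10, HOXC5, HOXC6 and HOXD9) and 0 were above them, beside 6.48% and 10.4% of all genes. Against naive replicate 3, all 4 repeat libraries were lower for 9 of the 20 and higher for 1, beside 15.3% and 16.9% of all genes. Low values were not limited to repeat exposures: HOXB6 was at 0.929, 0.104 and 0.625 TPM in the first exposure libraries and at 0.768, 0.719 and 11.8 TPM in the saliva immune ones. The labels give no body site for the biopsies, and the part of biopsy position in any difference reported here was not tested.

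LBX1, a homeobox factor of migrating muscle precursors, stood at 1.08 and 1.17 TPM after 3 bites and at 0.211 and 1.24 TPM after 2 bites, against 5.45, 9.52 and 14.4 TPM in naive replicates 3, 1 and 2. Its log2 difference was -1.79 (SE 0.491). Muscle enzymes and channels followed. PGAM2, the muscle phosphoglycerate mutase, ranged from 245.5 to 460 TPM against 896 to 6727 TPM, and ENO3, muscle enolase, from 322 to 576 TPM against 1074 to 4377 TPM. COX6A2, a respiratory chain subunit of striated muscle, ranged from 55.3 to 91.9 TPM against 179 to 1297 TPM, and CACNG6, a calcium channel subunit, from 3.87 to 9.73 TPM against 19.4 to 115 TPM. The remaining genes of the group were ASB12, RBM20, PTP4A3 and PPP1R27, with log2 differences between -1.08 and -1.69. None of the 12 passed the adjusted test.

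Over the whole skeletal muscle list, 24 of 32 genes were below all 3 naive libraries and 0 above, beside 6.48% and 10.4% of all genes, with a median log2 difference from naive replicate 3 of -1.28. The fast-fibre gene ACTN3 stood at 333 and 77.1 TPM after 3 bites and 55.9 and 69.1 TPM after 2 bites, against 544 TPM in naive replicate 3. The summed list was 15476 and 8097 TPM after 3 bites and 6466 and 8719 TPM after 2 bites, against 24582 TPM. So 3 bites replicate 1 held the most muscle transcript of the repeat libraries and 2 bites replicate 1 the least. Naive replicates 1 and 2 held 99080 and 172689 TPM, far more than any EF19-5 library.

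**Figure D2:**
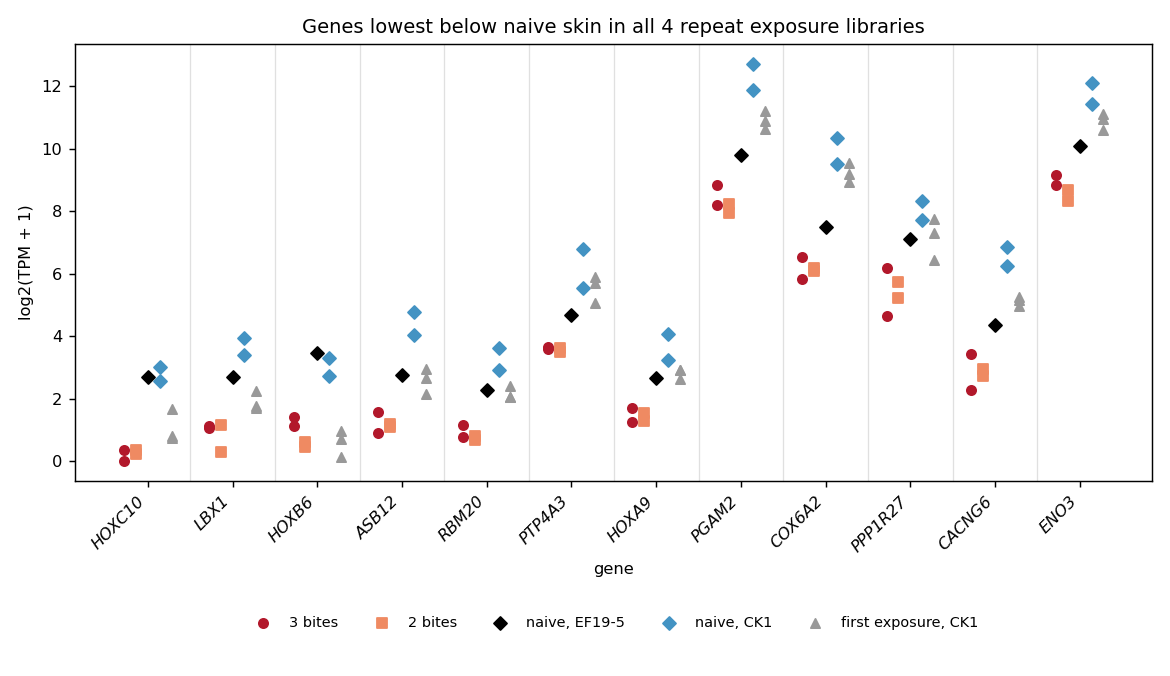
The 12 named genes with the widest gap below naive skin (x axis, gene) are plotted as log2(TPM + 1) on the y axis, 1 point per library, for the same 5 groups. By the rule that chose these genes, the highest repeat library sits below the lowest naive library for each, as for HOXC10 at 0.279 against 4.85 TPM. For HOXC10, HOXB6 and LBX1 all first exposure libraries are below all naive libraries as well.

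Leukocyte genes were mostly higher in repeat exposure skin, but 1 of the 4 libraries did not share the myeloid part of this. Gene lists are described by their counts and median, with no test, and no list gene passed the adjusted test (0 of 531 list genes tested). In bulk skin, fewer cells of a type and less RNA per cell cannot be told apart. The monocyte and macrophage list had 14 of 15 genes with a mean above naive replicate 3 and a median log2 difference of 0.77, against 0.01 over all genes. All 4 libraries were above naive replicate 3 for 4 of those 15, beside 16.9% of all genes. The medians per library were 1.71 and 0.58 after 2 bites, 1.07 in 3 bites replicate 1 and -0.63 in 3 bites replicate 2.

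C1QA, a chain of the complement starter C1q made by tissue macrophages, stood at 48.6 and 7.89 TPM after 3 bites and at 207 and 88.1 TPM after 2 bites, against 21.3, 19.6 and 20.4 TPM in naive replicates 3, 1 and 2. The haemoglobin scavenger receptor CD163 was likewise lowest in 3 bites replicate 2 and highest in 2 bites replicate 1, with 73.8, 8.85, 185 and 38.6 TPM against 14.8, 8.89 and 6.31 TPM. In both, 3 bites replicate 2 was below naive replicate 3 and the other repeat libraries were above all naive skin. MARCO, a scavenger receptor for bacteria, was listed at 0 in naive skin and stood at 4.55, 0.0684, 26.3 and 3.02 TPM. The mannose receptor MRC1 showed 45.7, 2.74, 48.5 and 18.3 TPM against 9.70 TPM in naive replicate 3. CSF1R, the receptor for the macrophage growth factor, was one of the 4 members above naive replicate 3 throughout, with 65.9, 38.7, 56.2 and 31.4 TPM against 25.4 TPM, though its lowest value overlapped with the 33.5 TPM of naive replicate 1.

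The complement list moved with the macrophage list library by library, at medians of 1.17 and 0.38 after 2 bites and 0.92 and -0.65 after 3 bites, and shares the C1q chains with it. None of its 15 genes had all 4 repeat libraries above naive replicate 3, beside 16.9% of all genes. The central component C3 stood at 74.3, 19.1, 69.9 and 44.1 TPM against 30.6 TPM. Fibroblast and extracellular matrix genes were also lowest in 3 bites replicate 2, with a median of -1.12 there and 0.62 in 3 bites replicate 1. That library thus held less macrophage and less dermal matrix transcript than the other repeat libraries, while its basal keratinocyte median, 0.90, was the highest of the 4.

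Neutrophil genes were higher on average for 12 of 13 members, with a median of 0.89. NCF1, a subunit of the phagocyte oxidase that makes superoxide, stood at 5.91, 1.88, 16.1 and 5.92 TPM, and its value in 3 bites replicate 2 was below the 2.60 TPM of naive replicate 3. CSF3R, the receptor for the neutrophil growth factor G-CSF, was listed at 0 in naive skin and reached 0.198, 0.756, 3.48 and 1.02 TPM. The alarmin S100A9, which activated keratinocytes also make, stood at 171, 624, 468 and 512 TPM against 159, 116 and 80.8 TPM, so it was high in the library that was low for NCF1. MPO, the granule enzyme of neutrophil precursors, was listed at 0 in all 7 libraries. In all, 4 of the 13 genes were above all naive skin and 0 below, beside 10.4% and 6.48% of all genes.

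Mast cells and basophils arm the skin with histamine and proteases. Of 9 of their genes tested, 7 had a mean above naive replicate 3, beside 50.9% of all genes, and the median was 0.79. The 2 with a mean below it are not among the genes named here. The summed list stood at 75.5 to 138 TPM in repeat skin, against 68.1 TPM in naive replicate 3. Most of that sum came from members other than those named here. The number above all 3 naive libraries was 4, beside 10.4% of all genes, and 0 were below. HDC, the enzyme that makes histamine, stood at 1.54 and 0.338 TPM after 3 bites and 3.79 and 4.04 TPM after 2 bites, against 0.248, 0.236 and 0.272 TPM in naive replicates 3, 1 and 2 (log2 difference 1.27, SE 0.584). The mast cell chymase Cma1 stood at 5.58, 0.720, 11.9 and 3.44 TPM against 0.627, 0.115 and 0 TPM (1.63, SE 0.814). For both, 3 bites replicate 2 was only just above the naive libraries and the other 3 repeat libraries were well above them.

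The mast cell carboxypeptidase CPA3 stood at 6.30, 1.78, 7.35 and 3.18 TPM against 1.73, 0.761 and 0.317 TPM. MS4A2, the beta chain of the high-affinity IgE receptor, stood at 10.3, 2.82, 4.92 and 5.90 TPM against 2.44, 2.17 and 1.46 TPM. Neither overlapped, and again 3 bites replicate 2 was nearest to naive skin. Ptgdr2, the prostaglandin D2 receptor of basophils, eosinophils and T helper 2 cells, stood at 2.90, 0.380, 1.36 and 0.835 TPM against 0.249 TPM in naive replicate 3 and 0.999 TPM in naive replicate 1. The eosinophil list had 0 genes tested, and its peroxidase EPX was listed at 0 in all 7 libraries.

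**Figure D3:**
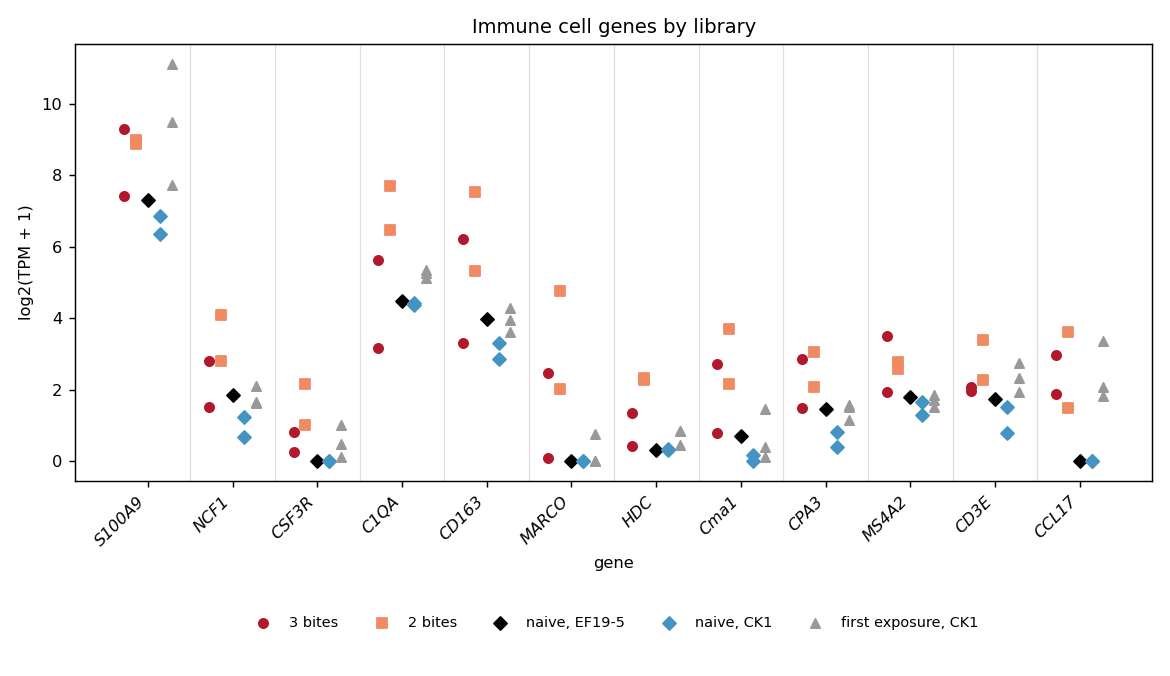
Immune cell genes (x axis) are plotted as log2(TPM + 1) on the y axis, 1 point per library, for 3 bites, 2 bites, EF19-5 naive, CK1 naive and first exposure skin. HDC, CPA3, MS4A2 and Cma1 have all repeat points above all naive points, while for NCF1, C1QA and CD163 1 of the 3 bites points falls at or below the EF19-5 naive point.

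T cell genes were higher on average for 11 of 12 members, with a median of 0.69, and the median was positive in every repeat library (0.32 to 1.15). CD3E, a chain of the T cell receptor complex, stood at 3.24, 2.92, 9.44 and 3.80 TPM against 2.35, 1.88 and 0.729 TPM. CD3G stood at 1.37, 1.02, 3.40 and 1.02 TPM against 0.448, 0.685 and 0.458 TPM. In each, 2 bites replicate 1 was the highest and no repeat library overlapped with naive skin. The cytokine receptor IL7R stood at 2.00, 0.788, 4.40 and 2.55 TPM against at most 0.753 TPM. FOXP3, the factor of regulatory T cells, ranged from 0.501 to 1.06 TPM and overlapped with the 0.579 TPM of naive replicate 3. The cytotoxic and natural killer list had a median of 0.26 over 5 genes and 0 above all naive skin, beside 10.4% of all genes.

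Of 5 B cell and plasma cell genes tested, 4 had a mean above naive replicate 3, beside 50.9% of all genes. Of these 5 genes, 1 was above and 1 below all naive skin, beside 10.4% and 6.48% of all genes. XBP1, a factor of plasma cells and other secretory cells, held nearly all of the list's transcript, at 243, 186, 401 and 255 TPM against 243, 210 and 133 TPM. CD79A, a chain of the B cell receptor, stood at 1.28, 0.620, 2.71 and 1.26 TPM against 0.533, 0.512 and 0.256 TPM. MZB1, a chaperone of plasma cells, went the other way, with 0.234 to 0.522 TPM against 0.856, 6.61 and 10.6 TPM. The median over the 5 genes was 0.19, and 0.75 with a pseudocount of 0.1.

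Antigen-presenting genes were mostly higher on average, by a moderate amount. All 8 class II genes tested had a mean above naive replicate 3, with a median of 0.68, but 1 was above all 3 naive libraries, beside 10.4% of all genes. HLA-DMA, which loads peptide onto class II molecules, stood at 30.2, 28.5, 44.9 and 26.1 TPM against 17.2, 23.9 and 15.6 TPM, the only member with that separation. Of 10 dendritic and Langerhans cell genes tested, 7 had a mean above naive replicate 3 and 3 below, with a median of 0.42. All 4 libraries were above it for 3 and below it for 1, beside 16.9% and 15.3% of all genes. Only 1 was above all naive skin and 0 below, beside 10.4% and 6.48%, and the median in 3 bites replicate 2 was -0.05. CD207, langerin of Langerhans cells, stood at 16.3, 35.8, 15.3 and 23.5 TPM against 10.5 TPM in naive replicate 3, within reach of the 26.1 TPM of naive replicate 1. CD86, a costimulatory ligand for T cells, stood at 5.29, 4.60, 10.3 and 4.92 TPM against 3.39, 2.62 and 0.868 TPM.

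**Figure D4:**
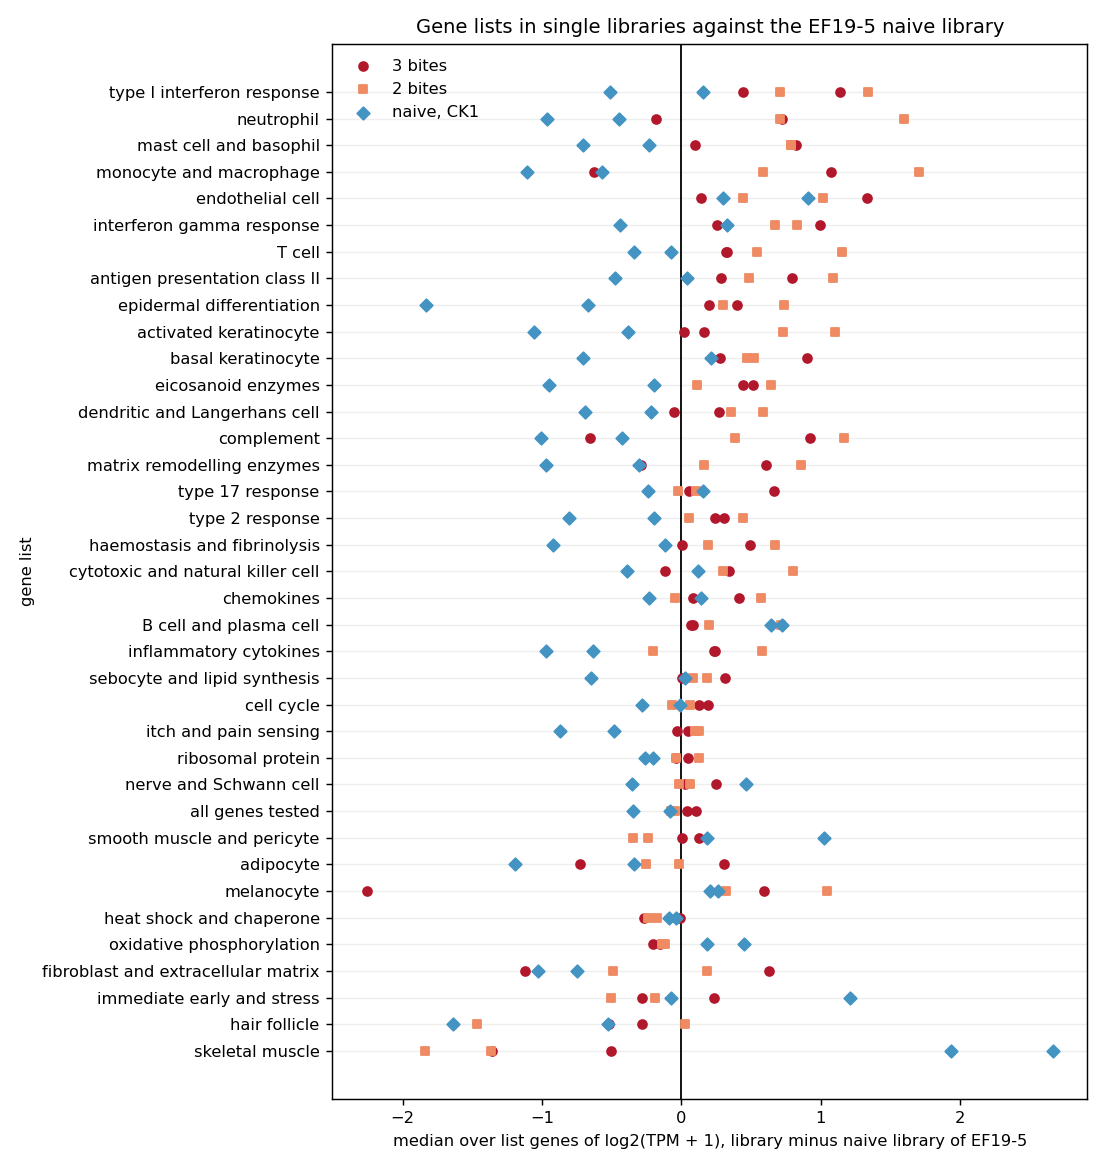
For each gene list (y axis), the median over its genes of the log2 difference from naive replicate 3 is plotted on the x axis, 1 point per repeat or CK1 naive library. The 4 repeat points lie above 0 for the type I interferon list (0.44 to 1.33) and below 0 for skeletal muscle (-1.84 to -0.50), and they spread across 0 for the monocyte and macrophage list (-0.63 to 1.71).

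Interferon-induced genes were mostly higher in all 4 repeat libraries, including the 1 that was low for macrophage genes. Of 10 type I interferon genes tested, 8 had all 4 libraries above naive replicate 3 and 7 were above all 3 naive libraries, beside 16.9% and 10.4% of all genes, and the median was 1.00. ISG15, an interferon-induced ubiquitin-like protein, stood at 13.6, 38.2, 20.4 and 19.9 TPM against 7.75, 8.13 and 4.40 TPM (1.36, SE 0.478). Repeat and naive skin did not overlap, and 3 bites replicate 2, low for macrophage genes, was the highest.

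OAS1, a sensor of double-stranded RNA, stood at 6.38, 13.9, 10.02 and 3.45 TPM against 1.58, 2.17 and 2.41 TPM (1.73, SE 0.512). RSAD2, viperin, stood at 2.04, 1.94, 3.50 and 1.90 TPM against 0.432, 1.03 and 0.549 TPM (1.198, SE 0.322). Both were separate from naive skin, and OAS1 was again highest in 3 bites replicate 2. ISG20, an interferon-induced exonuclease, went the other way, at 2.12 to 4.42 TPM against 5.84 TPM in naive replicate 3. In the interferon gamma list, 10 of 13 genes had all 4 libraries above naive replicate 3, 4 were above all naive skin, beside the same 16.9% and 10.4%, and the median was 0.70. IRF1, a transcription factor induced by interferon gamma, stood at 21.9, 35.4, 30.4 and 18.8 TPM against 15.4, 13.2 and 7.58 TPM. The chemokine CXCL10 stood at 4.09, 28.4, 7.15 and 10.3 TPM against 3.99 TPM, so its excess was largely that of 3 bites replicate 2. Ifng itself was listed at 0 in 6 of the 7 libraries and at 0.159 TPM in 2 bites replicate 1.

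Il4, Il5 and IL13, cytokines of type 2 immunity, stayed below 1 TPM in these libraries, except for IL13 in 2 bites replicate 1. Il5 was listed at 0 throughout, Il4 reached 0.511 and 0.590 TPM in the 2 bites libraries and 0 in the others, and IL13 was 3.58 TPM in 2 bites replicate 1, 0.433 TPM in naive replicate 3 and 0 elsewhere among the 7. Il10, a cytokine that restrains inflammation, was listed at 0 in naive skin and at 0.406, 0.186, 1.79 and 0.640 TPM in repeat skin. Il17a was found only in 3 bites replicate 2 among the 7 libraries, at 0.507 TPM. The depth behind these values is unknown, so no limit can be put on a value of 0. None of the 5 passed the filter for the tests.

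Receptors and targets of the type 2 pathway were better measured. Of 15 type 2 genes tested, 8 had all 4 libraries above naive replicate 3 and 6 were above all naive skin, beside 16.9% and 10.4% of all genes, with a median of 0.33. IL13RA1, a chain of the receptor shared by IL-4 and IL-13, stood at 171, 181, 236 and 125 TPM against 94.3, 69.6 and 34.3 TPM. Its partner chain IL4R stood at 66.0, 73.7, 98.6 and 77.5 TPM against 59.4, 48.4 and 30.0 TPM, and the transcription factor STAT6 at 110, 125, 120 and 91.6 TPM against 88.1, 76.6 and 60.1 TPM. All were separate from naive skin, by small margins for STAT6 and IL4R. The eosinophil chemokine Ccl11 was not, at 8.20, 2.92, 2.61 and 4.21 TPM against 6.81 TPM. CCL22, the other ligand of CCR4, stood at 27.8 to 40.5 TPM, below the 52.4 TPM of naive replicate 3 and above the 21.4 and 6.77 TPM of the others, so CCL17 and CCL22 differed in direction against the same library.

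Il1b, Cxcl8 and Ccl2, an inflammatory cytokine and 2 chemokines, were highest in 2 bites replicate 1. Il1b stood at 7.67, 3.42, 18.0 and 3.42 TPM against 3.57 TPM in naive replicate 3. The neutrophil chemokine Cxcl8 stood at 2.26, 2.44, 13.4 and 1.23 TPM against 0.757, 0.646 and 0.256 TPM. The monocyte chemokine Ccl2 stood at 24.7, 13.5, 151 and 23.7 TPM against 25.0 TPM. The other repeat libraries lay on both sides of naive replicate 3 for Il1b and below it for Ccl2. Tnf ranged from 1.45 to 2.38 TPM against 1.88 TPM. The medians were 0.16 over 9 inflammatory cytokines and 0.20 over 18 chemokines, and without 2 bites replicate 1 they were 0.04 and 0.02.

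Enzymes of eicosanoid synthesis, which turn arachidonic acid into leukotrienes and prostaglandins, were higher for 16 of 20 members on average. Of the 20, 8 were above all 3 naive libraries and 1 below, beside 10.4% and 6.48% of all genes, and the median was 0.44. ALOX12, a lipoxygenase of epidermis and platelets, stood at 46.2, 57.7, 83.6 and 37.6 TPM against 19.7, 13.5 and 10.6 TPM (log2 difference 1.41, SE 0.432). Lta4h, which makes leukotriene B4, an attractant of neutrophils, stood at 89.6, 88.4, 107 and 88.6 TPM against 63.4, 56.5 and 46.2 TPM (0.545, SE 0.181). Both were separate from naive skin, and Lta4h was nearly the same in 3 of the 4 libraries. PTGES, a prostaglandin E synthase, stood at 27.4, 15.4, 40.2 and 25.3 TPM against 15.0 TPM, the value of 3 bites replicate 2 being barely above. The secreted phospholipase Pla2g2a was the member below all naive skin, at 0.405, 0, 2.05 and 3.07 TPM against 5.94, 4.58 and 7.57 TPM.

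Tick saliva acts on blood clotting, and host genes of clotting and its lysis were measured for 20 members. On average 18 were higher, 2 were above all 3 naive libraries, a share near the 10.4% of all genes, and 0 were below, with a median of 0.29. PLAU, urokinase, which activates plasminogen in wounds, stood at 48.3, 60.8, 49.9 and 47.9 TPM against 26.7, 30.0 and 18.3 TPM (0.92, SE 0.330). F5, coagulation factor V, stood at 6.70, 0.879, 9.10 and 2.94 TPM against 0.761, 1.45 and 0.848 TPM, and 3 bites replicate 2 fell within naive skin. Vwf, von Willebrand factor of endothelium, stood at 21.7, 5.59, 18.4 and 8.71 TPM against 4.95, 10.6 and 5.06 TPM. Of 13 itch and pain genes, 1 was above all naive skin and 0 below, beside 10.4% and 6.48% of all genes, and the list median was 0.07. All 4 libraries were above naive replicate 3 for 2 of the 13 and below it for 2, beside 16.9% and 15.3%. The 1 above all naive skin was OSMR, the receptor chain for oncostatin M and IL-31, at 48.2, 29.9, 109 and 42.9 TPM against 26.3, 18.5 and 11.1 TPM.

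Endothelial genes showed how much the choice of naive library matters. Against naive replicate 3, 16 of 19 were higher on average, 10 had all 4 libraries above it, beside 16.9% of all genes, and the median was 0.75, but 0 were above all 3 naive libraries. With all naive libraries as the reference the median was 0.24. CLDN5, the tight junction claudin of vessels, stood at 11.6, 5.89, 12.6 and 8.01 TPM against 3.93 TPM in naive replicate 3, while naive replicates 1 and 2 held 16.7 and 12.4 TPM. Its log2 difference was 1.04 (SE 0.337) against naive replicate 3 and -0.05 against all 3. ACKR1, a chemokine-binding protein of venules, showed the same, with 5.72 to 16.4 TPM against 4.36 TPM in naive replicate 3 and 14.3 and 10.6 TPM in the others. SELP, P-selectin, which slows leukocytes on the vessel wall, stood at 3.66, 1.03, 4.39 and 2.20 TPM against 0.562, 2.38 and 1.02 TPM.

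In the epidermis, 7 of 13 differentiation genes were above all 3 naive libraries and 0 below, beside 10.4% and 6.48% of all genes, and the median was 0.48. KRT1, the main suprabasal keratin, stood at 21952, 26931, 30577 and 17566 TPM against 11674, 7214 and 3002 TPM (1.02, SE 0.575). The desmosomal cadherin DSG1 ranged from 768 to 1120 TPM against 175 to 625 TPM. The margin over naive replicate 3 was narrow and that over naive replicates 1 and 2 wide, and against all 3 the list median was 1.46. Those naive libraries held the most muscle transcript, and its part in the wider difference was not tested. In the basal layer, 7 of 11 genes had all 4 libraries above naive replicate 3 and 3 were above all naive skin, beside 16.9% and 10.4% of all genes, with a median of 0.44. COL17A1, which anchors basal cells to the basement membrane, stood at 233, 360, 192 and 160 TPM against 105 TPM in naive replicate 3 but 223 TPM in naive replicate 1. CDH3, P-cadherin, was separate, at 91.4, 91.2, 132 and 142 TPM against 75.2, 62.6 and 54.8 TPM.

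Of 10 genes of activated or wounded keratinocytes, 4 were above all 3 naive libraries and 0 below, beside 10.4% and 6.48% of all genes. STEAP4, a metalloreductase of inflamed epithelium, stood at 9.98, 9.24, 15.3 and 15.1 TPM against 4.10, 5.25 and 2.17 TPM (1.36, SE 0.443). TNC, tenascin C, a matrix glycoprotein of healing wounds, stood at 29.7, 21.4, 57.9 and 42.8 TPM against 9.02, 12.1 and 2.23 TPM (1.87, SE 0.683). For both, the 2 bites libraries were above the 3 bites libraries, and all 4 were above naive skin. KLK10, another kallikrein, went against KLK13, at 307 to 547 TPM against 799 TPM in naive replicate 3. HBEGF, a growth factor ligand of the EGF receptor, ranged from 21.9 to 32.6 TPM against 38.5 TPM.

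COL1A1 and COL1A2, the chains of type I collagen, were lower on average than naive replicate 3, and COL1A1 overlapped with the other naive libraries. COL1A1 stood at 2837, 1342, 2733 and 1850.4 TPM against 5316 TPM in naive replicate 3, and 1405 and 716 TPM in naive replicates 1 and 2. The log2 difference was -1.34 (SE 0.508) from naive replicate 3 and 0.26 from all 3, and for COL1A2 it was -1.55 (SE 0.576) and 0.11. Naive replicate 3 was thus the library that stood apart for type I collagen. The fibroblast list as a whole had 8 of 22 genes higher and 14 lower on average, with a median of -0.20, which was 0.10 without 3 bites replicate 2 and 0.30 against all 3 naive libraries. TIMP3, a matrix-bound inhibitor of metalloproteinases, was below all naive skin, at 65.2, 64.5, 55.2 and 60.9 TPM against 107, 136 and 92.8 TPM (-0.79, SE 0.273), and the 4 repeat values lay close together.

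Hair follicle genes were lower on average than naive replicate 3 for 23 of 23 members, with a median of -0.58, but 1 was below all 3 naive libraries, beside 6.48% of all genes, and against all 3 the median was 0.09. The per-library medians were -1.47 in 2 bites replicate 1 and 0.03 in 2 bites replicate 2, and without 2 bites replicate 1 the median was -0.27. KRT75, a keratin of the follicle's companion layer, stood at 1019, 954, 598 and 1368 TPM against 1713, 870.1 and 550.2 TPM. Sebocyte and lipid synthesis genes had a median of 0.14 over 26 members. FAR2, which makes wax alcohols for sebum, stood at 6.98, 11.2, 11.1 and 8.33 TPM against 4.76 TPM in naive replicate 3 and 10.8 TPM in naive replicate 1. Melanocyte genes varied most between repeat libraries, with a median of -2.26 in 3 bites replicate 1 and 0.32 to 1.04 in the other 3. PMEL, a protein of the pigment organelle, stood at 1.86, 64.3, 37.6 and 84.9 TPM against 17.1, 35.6 and 31.5 TPM, so only 3 bites replicate 1 was nearly without it.

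Among general programmes, oxidative phosphorylation genes were lower by little but in nearly all libraries. Of 20 tested, 20 had a mean below naive replicate 3, beside 49.0% of all genes, 13 were below all 3 naive libraries, beside 6.48%, and the median was -0.17. COX4I1, a subunit of the last respiratory complex, stood at 289, 293, 295 and 313 TPM against 345, 411 and 532 TPM. The order of its naive values followed that of the muscle share, and the part of muscle was not tested. Heat shock genes had 4 of 14 below all naive skin, beside 6.48% of all genes, and a median of -0.16, among them HSPB8, a small chaperone abundant in muscle, at 103 to 152 TPM against 190 to 245 TPM. Immediate early genes had a median of -0.22. IER3 stood at 105, 110, 91.9 and 109 TPM against 194 and 190 TPM in naive replicates 3 and 1, and naive replicate 2, at 107 TPM, lay within the repeat range. Cell cycle genes had a median of 0.11, with MCM3, a part of the replicative helicase, at 23.1 to 27.4 TPM against 19.3 to 21.3 TPM.

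The 2 and 3 bites libraries rest on the same naive library, so each comparison is given by its own values. Against naive replicate 3, limma called 2 genes after 2 bites (0.0134%), ENSCPOG00000008260 and LITAFD, and 1 after 3 bites (0.00668%), ENSCPOG00000008260. The call of LITAFD after 2 bites had an adjusted p of 0.0360 and was lost when any single library was left out other than 2 bites replicate 2. Those fits called 1 gene, or 2 with SPINK7 without first exposure replicate 3, and the fit without 2 bites replicate 2 called 3, adding GREM1. Without 3 bites replicate 2 there were 3 calls after 3 bites, adding KRT9 and MRPS36. Over all genes the median log2 difference was -0.06 after 2 bites and 0.08 after 3 bites. Set directly against each other, 3 bites and 2 bites gave 0 calls by limma (0%), 1615 genes at an unadjusted p under 0.05 (10.8%), and a smallest adjusted p of 0.179.

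The lists whose medians differed most between 2 and 3 bites were melanocytes, at 0.56 and -0.50, neutrophils, at 1.35 and 0.31, monocytes and macrophages, at 1.196 and 0.30, and complement, at 0.84 and 0.05. In the melanocyte list only 3 bites replicate 1 was low. In the other 3 lists 3 bites replicate 2 was low, while 3 bites replicate 1 had medians of 0.72, 1.07 and 0.92. Interferon gamma genes had medians of 0.75 and 0.67, type I interferon genes 1.14 and 0.79, and endothelial genes 0.68 and 0.74. SPINK7 differed from naive replicate 3 by 3.91 after 2 bites and 2.36 after 3 bites on the log2 scale, and KLK13 by 2.88 and 2.07.

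The first exposure libraries belong to the other experiment, so each response was taken against its own naive skin and the difference of the responses was tested. The 2 responses share no naive library. Limma called 0 of 14979 genes (0%), with 450 at an unadjusted p under 0.05 (3.00%). The median response difference over all genes was -0.10, and list medians ran from -1.45 for adipocyte genes to 0.72 for immediate early genes. The smallest adjusted p, 0.436, belonged to GABRP, a GABA receptor subunit, and CLDN17, a claudin. GABRP stood at 22.8, 24.9, 19.7 and 28.6 TPM in repeat skin against 56.2 TPM in its naive library, and at a mean of 27.0 ± 2.85 TPM (SD, n = 3) after a first exposure against 11.8 and 10.2 TPM. The bitten groups were thus alike and the naive libraries were not, and the response difference was -2.43 (SE 0.383). With library weights both genes passed, which gave 2 calls.

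Of all lists, adipocyte genes had the widest median difference between the responses (-1.45). The adipocyte list had a median of -0.09 after repeat exposure and 1.39 after a first exposure, each against its own naive skin, and 11 of its 20 genes had an unadjusted p under 0.05 for the response difference, beside 3.00% of all genes. LEP, leptin, stood at 1501, 563, 838 and 775 TPM in repeat skin against 1267 TPM in naive replicate 3. After a first exposure it stood at 4288, 1377 and 2853 TPM against 401 and 240 TPM in naive replicates 1 and 2. The response difference was -3.60 (SE 0.925, limma adjusted p = 1.00). Naive replicate 3 held more leptin than the other naive libraries, and 2 of the 3 first exposure libraries were above all repeat libraries. ADIPOQ, adiponectin, differed by -2.29 (SE 1.02) and CIDEA, a lipid droplet protein, by -2.65 (SE 0.659). The adipocyte median of the repeat response was 0.43 against all 3 naive libraries, so its sign depends on that choice.

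SPINK7 and KRT2 differed the other way, but the epidermal differentiation list did not, with a median response difference of -0.30. SPINK7 stood at a mean of 0.801 TPM after a first exposure and 29.5 ± 18.5 TPM (SD, n = 4) in repeat skin, and the response difference was 2.55 (SE 0.992). KRT2 stood at 55.8, 189 and 290 TPM after a first exposure, within or below the range of naive skin, and at 1920 ± 946 TPM (SD, n = 4) in repeat skin, a response difference of 2.70 (SE 0.958). TIMP3 differed by -1.21 (SE 0.352), with a first exposure mean of 151 TPM, above the 92.8 to 136 TPM of naive skin. All had adjusted p-values of 1.00. For CCL17, first exposure skin held a mean of 5.00 TPM, against a listing of 0 in all naive libraries. Its response was 2.49 in repeat skin and 2.42 after a first exposure on the log2 scale, a difference of 0.07.

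**Figure D5:**
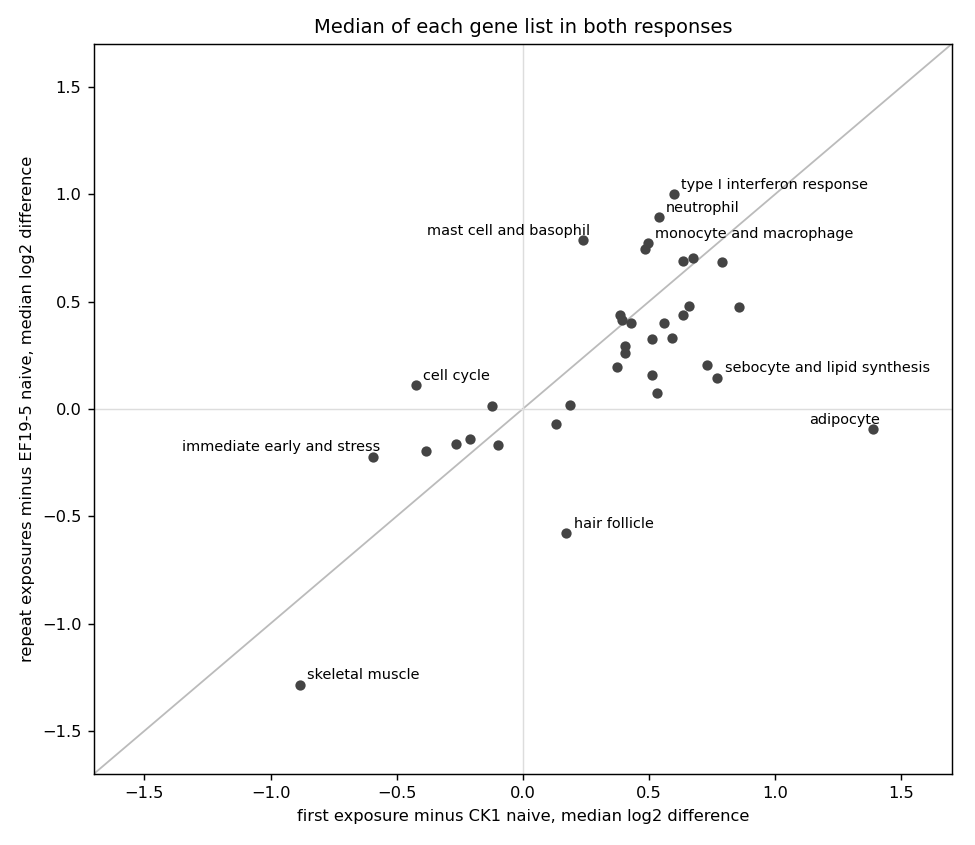
Each point is a gene list, with its median log2 difference of first exposure from CK1 naive skin on the x axis and of repeat exposures from EF19-5 naive skin on the y axis, and the diagonal marks equal responses. The adipocyte list lies farthest below the diagonal (1.39 and -0.09) followed by the hair follicle list (0.17 and -0.58), while most immune lists are positive on both axes.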

How the data were processed

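Total RNA of guinea pig skin was sequenced in 13 libraries. The TPM values are those the authors deposited, 26855 genes with a column for every library that sums to 1000000. Trimmomatic and StringTie stand, without version, among the programs of the submitters' processing notes. Aligner, build and annotation: not given in the sources used here. TPM hides the depth, which is unknown, so no counting interval or floor is given.

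Genes that reached 1 TPM in 2 or more libraries (14979) were tested on log2(TPM + 1), a pseudocount that understates changes of low genes, with limma 3.58.1 in R 4.3.3, two-sided, with a trend and Benjamini-Hochberg adjustment over all of them at 0.05. All 13 libraries entered as 5 groups (first exposure, saliva immune, naive CK1, naive EF19-5 and repeat exposures), leaving 8 residual degrees of freedom, or 7 with 2 bites and 3 bites apart. The spread of the single EF19-5 naive library is assumed equal to that of the other groups. The fit was also run on simulated data with independent normal noise per gene, and the outcome is not reported here.

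Members, comparisons, tests and the 38 gene lists (817 symbols, 604 of them found) were chosen with earlier results of these data known. Named genes are those called, the 12 each way with a symbol, a mean of at least 5 TPM in the higher of repeat and naive skin and the widest gap between the nearest repeat and naive libraries, up to 4 per list with the smallest p, and a panel of 34 genes, of which 29 were listed and 22 tested. Members named beyond these were chosen after their values were seen. Some members of the lists are not reported here by name. Symbols are spelled as deposited, and no coordinates or sequences are given. Alternatives were other pseudocounts, filters, scalings, weights, references and each library left out, and totals taken without muscle genes, an alternative chosen after seeing the data.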

Additional observations from a re-analysis of the deposited data

Results flagged for a closer look

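Among the 4 repeat libraries, 1 lay far from the other 3 (a gap above Dixon's critical value of 0.829 of the range) for 10 of the 180 named genes. Chance alone flags about 1 in 20 independent groups. These genes share the same 4 libraries and were partly chosen by their values, so that rate does not apply to them. In 2 bites replicate 1, SLURP2 was 98.9 TPM (others 52.4 to 55.7), CD86 10.3 TPM (4.60 to 5.29), Lta4h 107 TPM (88.4 to 89.6), RSAD2 3.50 TPM (1.90 to 2.04) and LBX1 0.211 TPM (1.08 to 1.24). In 3 bites replicate 1, MMP12 was 41.6 TPM (13.7 to 14.9) and the co-chaperone BAG3 137 TPM (110 to 112). In 3 bites replicate 2, PLAU was 60.8 TPM (47.9 to 49.9) and the transcription factor EGR2 82.0 TPM (48.0 to 51.2). In 2 bites replicate 2, the substance P receptor Tacr1 was 5.55 TPM (2.23 to 2.35). No response difference between repeat and first exposure was called.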

How the results depend on the processing

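Called genes in repeat exposures against naive skin numbered 1, and 2 with a pseudocount of 0.1, with library weights, with 2 and 3 bites as groups of their own or in EF19-5 alone, 35 with no filter (2 higher, 33 lower, 18770 genes tested) and 434 against all 3 naive libraries. ENSCPOG00000008260 was among the calls in every setting run. Leaving out libraries gave 1 to 2. The response difference had 0 calls, 2 with library weights, 29 with no filter and 0 to 0 without single libraries. Calls after 2 bites numbered 2, 1 with a filter of 5 TPM, 37 with no filter and 1 to 3 without single libraries, and those after 3 bites 1, 30 with no filter and 1 to 3. Genes above all naive libraries ranged from 1617 to 4465 and those below from 1066 to 2144 without single libraries. Against all 3 naive libraries, CLDN5 (-0.050), COL1A1 (0.26), COL1A2 (0.11) and LEP (0.79) turned sign, and ADIPOQ ranged from -0.11 without 3 bites replicate 1 to 0.53 without 3 bites replicate 2. The cause was not tested. Of the other gene values, 1252 kept side and direction and 42 passed the threshold only under an alternative, and 20 of 304 list medians moved by more than the spread between repeat libraries. The list medians given in the report kept their sign under median-of-ratios scaling and with totals without muscle genes. The main comparison cannot be run without naive replicate 3. No paired analysis was possible because the labels give the groups no shared replicate numbers. A single naive library, an unknown depth and a muscle share that differs between libraries limit all values here.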
